A study of Arabidopsis thaliana with 44 samples.

Results

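The triple mutant sw:cbf123 was compared with its parent, the Swedish (SW) ecotype of Arabidopsis, in plants that had not been exposed to cold. The members are all genes for which sw:cbf123 or SW reached 1 FPKM in the warm (FPKM are fragments scaled for the length of the transcript and the size of the library), which kept 18326 of the 33557 genes in the deposited table. The study sequenced RNA from the whole aerial part of 44 samples in 22 groups, and the values are 1 pooled FPKM per gene and group, estimated by the authors from 2 replicates. A difference therefore has no replicate check, no error and no p-value, and fewer cells of a type cannot be told apart from less RNA per cell.

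All warm plants were grown on soil at 22 °C with 12 h of light, and were collected 23 days after germination at ZT4, that is 4 h after the lights came on. In sw:cbf123 the CBF1, CBF2 and CBF3 genes all carry CRISPR/Cas9 alleles in the SW background, and in sw:cbf2 the CBF2 gene alone does. The line labelled sw:cbf23 is also in the SW background, and its alleles are not described in the sources used here. SW itself carries the unedited genes. The methods state that edited plants were crossed back to the parent to remove the Cas9 insertion. Both sw:cbf123 and sw:cbf2 carry a single set of edited alleles, and for sw:cbf23 neither point is described. The methods describe independent F2 lines from these crosses, but the pooled values do not separate lines, so other differences between the mutant plants and SW cannot be told apart from the CBF alleles. The cold samples of sw:cbf123, sw:cbf2, sw:cbf23 and SW, kept at 4 °C for either 24 h or 2 weeks, are given only beside the warm comparison. So are the warm samples of the Italian (IT) ecotype and of a line labelled it8. The label it8 is not defined in the sources used here. In the study's supplementary chart data, alleles named IT8 are those that the axis labels as it:cbf123, the IT triple mutant.

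CBF1, CBF2 and CBF3 are AP2/ERF transcription factors encoded in a tandem array. They are induced within minutes to hours of a shift to low temperature, bind the CRT/DRE element in promoters and turn on the CBF regulon, a set of COR (cold-regulated) genes whose products help leaf cells to survive freezing. At warm temperature their transcripts are scarce, so a comparison in the warm addresses what differs between the lines before any cold induction.

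The alleles of sw:cbf123 all shift the reading frame, and they are shown because they set what the line lacks. Each sequence is part of the coding strand as the study aligned it, 5′ to 3′. Capitals mark the bases deleted from the SW sequence, the base inserted in the mutant, or the bases on either side of the break.
CBF1 in sw:cbf123: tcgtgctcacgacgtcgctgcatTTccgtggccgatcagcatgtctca
CBF1 in SW: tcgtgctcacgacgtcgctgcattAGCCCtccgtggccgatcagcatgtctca
CBF2 in sw:cbf123: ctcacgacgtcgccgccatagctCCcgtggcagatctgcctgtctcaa
CBF2 in SW: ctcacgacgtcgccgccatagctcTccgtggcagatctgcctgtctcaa
CBF3 in sw:cbf123: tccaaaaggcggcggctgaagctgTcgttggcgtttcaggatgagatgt
CBF3 in SW: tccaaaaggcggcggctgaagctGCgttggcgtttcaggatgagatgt
CBF2 in sw:cbf2: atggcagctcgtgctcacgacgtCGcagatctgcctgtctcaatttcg
CBF2 in SW, the same window: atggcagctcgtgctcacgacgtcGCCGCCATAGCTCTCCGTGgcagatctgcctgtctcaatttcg
CBF1 of sw:cbf123 had lost 5 bases from position 276 of the coding sequence, counted from 1 at the A of the start codon, and the first stop came after 102 codons, against 213 in SW. CBF2 had lost 1 base at position 290, with 132 codons before the first stop, against 216 in SW. CBF3 had gained 1 base at position 395, with 137 codons, against 216 in SW. In sw:cbf2 the allele of CBF2 was another one, a loss of 19 bases from position 277 that left 126 codons, against 216 in SW.

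Transcripts of the 3 genes were scarce in all of these warm samples. CBF1 (TAIR10.1, chromosome 4, 13021780-13022996, minus strand) was listed at 0 in sw:cbf123, sw:cbf2 and SW, and at 0.031 FPKM in sw:cbf23. CBF2 was at 0.19 FPKM in sw:cbf123, 0.45 FPKM in sw:cbf2 and 0.029 FPKM in sw:cbf23, against 0.032 FPKM in SW. CBF3 was at 1.08 FPKM in sw:cbf123, 0.90 FPKM in sw:cbf2 and 1.08 FPKM in sw:cbf23, against 0.39 FPKM in SW. CBF3 alone reached the 1 FPKM filter, and its log2 ratio of 0.82 lay inside the threshold. The alleles differ from SW by a few bases, so transcript levels do not check them. Of 10 annotated genes on either side of the array and the 3 between its members, 18 were in the table and 10 reached 1 FPKM. GA20OX1, a gibberellin 20-oxidase, was at 5.82 FPKM in sw:cbf123, 7.14 FPKM in sw:cbf2 and 6.996 FPKM in sw:cbf23, against 14.8 FPKM in SW, a log2 ratio of −1.27 that came to −0.79, inside the threshold, once the trend with the base composition of transcripts, given with the cell wall genes, was taken out. AT4G25433, which encodes a LysM-domain protein, was at 1.57 FPKM in sw:cbf123, 1.01 FPKM in sw:cbf2 and 1.56 FPKM in sw:cbf23, against 0.37 FPKM in SW, and no other neighbour passed the threshold.

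The levels of most genes in sw:cbf123 lay close to those in SW, with a median log2 ratio of 0.06 and a Pearson r of 0.96 across the 18326 genes, which are not independent replicates. A gene was called when log2((sw:cbf123 + 0.5)/(SW + 0.5)) was 1 or more, or −1 or less, a 2-fold difference with 0.5 FPKM added to both. By this rule 381 genes were higher in sw:cbf123, or 2.08%, and 410 were lower, or 2.24%, which makes 4.32% in either direction. These percentages are the background for every count of genes given here. The threshold cut through a dense range, since 147 genes had log2 ratios of 0.9 to 1 and 89 had ratios of 1 to 1.1, and on the lower side 121 and 107 genes stood in the same bands. MIR472 lay just inside the threshold, at 10.6 FPKM in sw:cbf123 and 5.06 FPKM in SW, and AT3G62422 just outside it, at 20.04 FPKM in sw:cbf123 and 9.78 FPKM in SW. On the lower side AT5G01075 was just inside, at 10.4 FPKM in sw:cbf123 and 21.4 FPKM in SW, and LSD1, a regulator of cell death, just outside, at 15.4 FPKM in sw:cbf123 and 31.3 FPKM in SW.

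**Figure D1:**
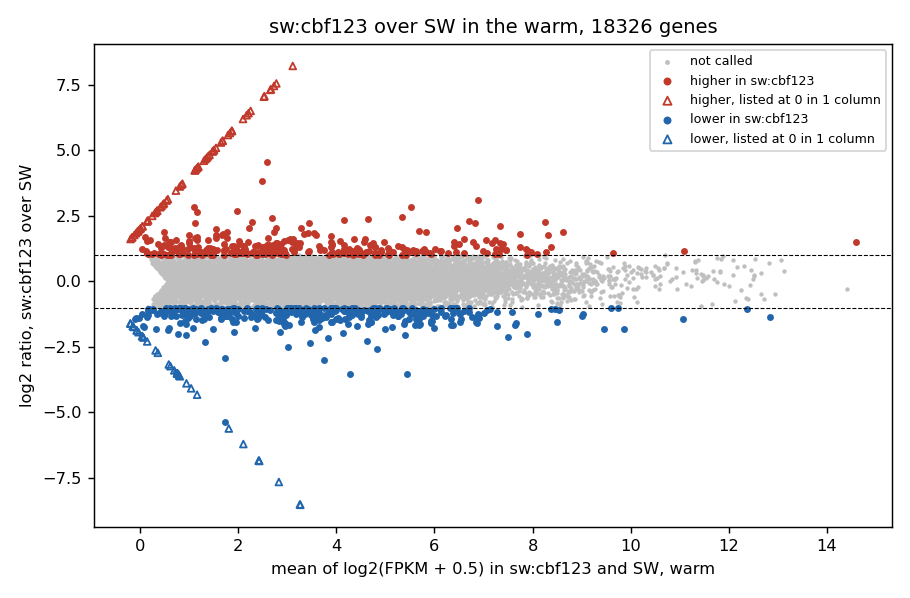
Log2 ratio of sw:cbf123 over SW in the warm (vertical axis) against the mean log2(FPKM + 0.5) of both columns (horizontal axis) for the 18326 genes kept. The 381 genes higher in sw:cbf123 are red, the 410 lower are blue, dashed lines mark the threshold, and triangles are genes listed at 0 in 1 column, whose height is set by the 0.5 FPKM added; they make up nearly all of the outermost points.

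The outermost genes were mostly short RNAs or plastid genes. The 12 largest rises were all listed at 0 in SW: 2 tRNAs, 2 snoRNAs, the precursors of MIR171a and MIR394b, 2 plastid genes, 1 pseudogene and 3 uncharacterized coding genes with transcripts of 102 to 236 nt. The tRNA gene AT1G15090, for example, had 149 FPKM in sw:cbf123 and 60.5 FPKM in sw:cbf2, and was listed at 0 in sw:cbf23 and SW. Of the 12 largest falls, 11 were listed at 0 in sw:cbf123, among them the plastid gene ATCG00060 (listed at 0 in all 3 mutants, against 183 FPKM in SW). No fold is given for such genes. In all, 65 of the 381 higher genes were listed at 0 in SW and 65 had transcripts under 300 nt, against 182 transcripts of that length among all genes kept. Of the 410 lower genes, 32 were listed at 0 in sw:cbf123 and 24 were under 300 nt. The plastid genome held 14 higher and 9 lower genes of 78 kept, or 17.9% and 11.5%. For the ranking of single genes, a subset was set apart after the values were seen: protein-coding genes with transcripts of at least 300 nt and above 0 in both columns. It held 17547 of the genes kept, and 252 of them were higher and 339 lower in sw:cbf123.

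The changes of sw:cbf123 were in part those of the other SW mutants, which were set against the same SW libraries, so an odd value in SW enters all of the ratios. In sw:cbf2, 301 genes were higher than in SW (1.64% of 18300 genes) and 156 lower (0.852%). In sw:cbf23, 386 were higher (2.1% of 18367) and 309 lower (1.68%). Of the 381 genes higher in sw:cbf123, 96 were higher in both other mutants, 38 in sw:cbf2 but not sw:cbf23, 79 in sw:cbf23 but not sw:cbf2, and 168 (44.1%) in neither. Of the 410 lower genes, 63 were lower in both, 36 in sw:cbf2 but not sw:cbf23, 142 in sw:cbf23 but not sw:cbf2, and 169 (41.2%) in neither. Most of the called genes leaned the same way in the other mutants: 333 of the 381 higher genes lay above SW in sw:cbf2 and 335 in sw:cbf23, and 363 of the 410 lower genes lay below SW in sw:cbf2 and 393 in sw:cbf23. The median log2 ratio of the higher genes was 1.29 in sw:cbf123, 0.80 in sw:cbf2 and 0.94 in sw:cbf23, and that of the lower genes was −1.24 in sw:cbf123, −0.73 in sw:cbf2 and −1.001 in sw:cbf23. Set directly against the other mutants, sw:cbf123 had 134 genes higher (0.731%) and 237 lower (1.29%) than sw:cbf2, and 128 higher (0.697%) and 155 lower (0.844%) than sw:cbf23. Genes called against SW and against both other mutants at once numbered 57 on the higher side and 27 on the lower side. These shared counts depend on the genes and the processing: in the coding subset 52 genes were higher in all 3 mutants and 11 higher and 15 lower than in all 3 other lines, and with the trend in base composition taken out 19 were lower in all 3 mutants.

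Among the genes that were low in the triple mutant, those of salicylic acid defence formed a group of named pathway genes. Salicylic acid accumulates in infected leaves, acts through NPR1 and turns on the PR (pathogenesis-related) genes. The list also holds enzymes of camalexin, an indolic phytoalexin made in infected leaves, whose induction is largely independent of NPR1. All 21 genes of the list lay below SW, and 11 passed the threshold, with a median log2 ratio of −1.02 beside 0.06 over all genes kept and 2.24% of them called lower. Several called members lay near 1 FPKM, and at 5 FPKM or more 7 of 17 genes were lower, with a median of −0.54. PR1, the marker of this response, was at 128 FPKM in sw:cbf123, 608 FPKM in sw:cbf2 and 153 FPKM in sw:cbf23, against 289 FPKM in SW. PR2, a beta-1,3-glucanase, was at 47.2 FPKM in sw:cbf123, 175 FPKM in sw:cbf2 and 62.3 FPKM in sw:cbf23, against 99.7 FPKM in SW. PR5, a thaumatin-like protein, was at 34.3 FPKM in sw:cbf123, 164 FPKM in sw:cbf2 and 53.4 FPKM in sw:cbf23, against 105 FPKM in SW. For all of these PR genes the triple mutant was the lowest line and sw:cbf2 the highest.

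The genes that make or relay the signal were split between called and uncalled members. FMO1 and ALD1, enzymes of the pipecolic acid branch that carries systemic resistance, were called lower, FMO1 at 0.083 FPKM in sw:cbf123 and 1.05 FPKM in SW, and ALD1 at 0.52 FPKM in sw:cbf123 and 1.56 FPKM in SW. The regulator SARD1 was at 22.4 FPKM in sw:cbf123 and 50.0 FPKM in SW. SAG101, a partner of EDS1, was at 23.1 FPKM in sw:cbf123, 29.7 FPKM in sw:cbf2 and 22.5 FPKM in sw:cbf23, against 53.8 FPKM in SW, so here all 3 mutants lay low. EDS16, the isochorismate synthase, had a log2 ratio of −0.54, PAD4 −0.81, NPR1 −0.48 and EDS1 −0.20, none past the threshold. WRKY70 and WRKY54 were at −0.09 and −0.07. The camalexin enzymes had ratios of −2.32 and −1.58, the first and the third most negative of the list, with PR5 at −1.60 between them. CYP71A13 was at 0.62 FPKM in sw:cbf123, 6.33 FPKM in sw:cbf2 and 1.81 FPKM in sw:cbf23, against 5.11 FPKM in SW, and PAD3 was at 0.53 FPKM in sw:cbf123, 3.40 FPKM in sw:cbf2 and 1.88 FPKM in sw:cbf23, against 2.56 FPKM in SW.

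**Figure D2:**
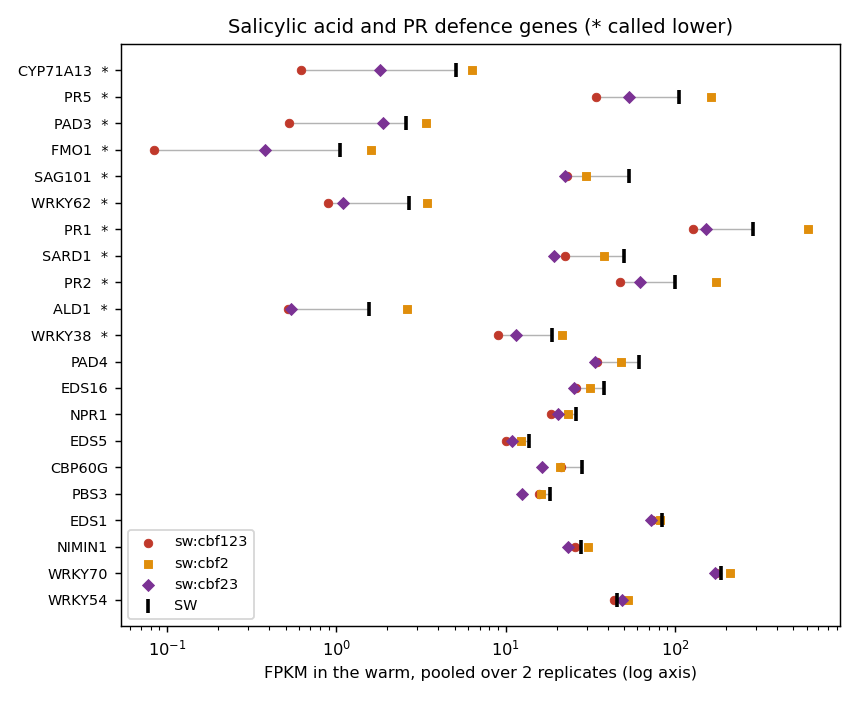
FPKM in the warm on a log axis for the 21 genes of salicylic acid and PR defence, from the most negative ratio at the top, in sw:cbf123 (red), sw:cbf2 (orange), sw:cbf23 (violet) and SW (black bar), each pooled over 2 replicates. All 21 red points lie left of the black bars, by 2-fold or more, with 0.5 FPKM added, for the 11 genes with an asterisk, and sw:cbf2 lies right of SW for PR1 (608 against 289 FPKM).

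The same list gave a median log2 ratio of 0.18 in sw:cbf2, with 1 gene higher and 0 lower, and of −0.68 in sw:cbf23, with 0 higher and 4 lower. CHI, a chitinase, was at 2.94 FPKM in sw:cbf123, 32.8 FPKM in sw:cbf2 and 8.77 FPKM in sw:cbf23, against 18.8 FPKM in SW, 5.62-fold lower in the triple mutant with 0.5 FPKM added. The senescence-associated gene SAG13 was at 8.34 FPKM in sw:cbf123, 78.5 FPKM in sw:cbf2 and 11.2 FPKM in sw:cbf23, against 34.1 FPKM in SW, while the other senescence genes kept, NAP and NAC6, lay above SW with log2 ratios of 0.59 and 0.51. Families of defence genes were also counted, chosen by product name after the values had been seen. They overlap the genes above and are not separate evidence. PR1, PR5 and CHI are among the lower chitinases and pathogenesis-related proteins. WRKY38 and WRKY62, lower genes of the salicylic acid list, are among the lower WRKY factors. Of 36 chitinases and pathogenesis-related proteins kept, 6 were lower and 0 higher (median −0.38). Of 30 cysteine-rich receptor-like kinases, membrane kinases many of which respond to pathogens, 6 were lower and 0 higher (median −0.53); CRK7, for example, was at 4.11 FPKM in sw:cbf123, 7.82 FPKM in sw:cbf2 and 3.85 FPKM in sw:cbf23, against 10.6 FPKM in SW. Of 45 WRKY factors, 5 were lower and 0 higher (median −0.24), with WRKY75 at 0.17 FPKM in sw:cbf123, 2.32 FPKM in sw:cbf2 and 0.14 FPKM in sw:cbf23, against 1.08 FPKM in SW.

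Defensins of the jasmonate and ethylene branch were low in the triple mutant and high in the other mutants. PDF1.2b was at 8.16 FPKM in sw:cbf123, 79.6 FPKM in sw:cbf2 and 48.0 FPKM in sw:cbf23, against 24.7 FPKM in SW. PDF1.3 was at 1.81 FPKM in sw:cbf123, 38.9 FPKM in sw:cbf2 and 13.1 FPKM in sw:cbf23, against 4.93 FPKM in SW. PDF1.2c, named after its values were seen, was at 1.51 FPKM in sw:cbf123, 20.3 FPKM in sw:cbf2 and 14.8 FPKM in sw:cbf23, against 4.02 FPKM in SW. These genes are near copies of each other, so the way reads were shared out among them is uncertain. VSP2, a storage protein induced by the MYC branch of jasmonate signalling, went the other way at 41.6 FPKM in sw:cbf123, 33.2 FPKM in sw:cbf2 and 23.4 FPKM in sw:cbf23, against 13.3 FPKM in SW. The rest of the 21 jasmonate genes kept lay inside the threshold, VSP1 with a log2 ratio of 0.94, MYC2 with 0.70 and the biosynthetic gene LOX2 with 0.48, and the median was 0.04.

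The lower genes held many cell wall proteins. Arabinogalactan and fasciclin-like proteins are glycoproteins of the cell surface, and 17 of 39 kept were lower in sw:cbf123 and 0 higher, with a median log2 ratio of −0.95. FLA9 was at 20.4 FPKM in sw:cbf123, 50.8 FPKM in sw:cbf2 and 38.9 FPKM in sw:cbf23, against 84.9 FPKM in SW. The abundant AT4G16980 was at 497 FPKM in sw:cbf123, 887 FPKM in sw:cbf2 and 629 FPKM in sw:cbf23, against 1755 FPKM in SW. SOS5, a fasciclin-like protein needed for normal cell expansion under salt, was at 28.3 FPKM in sw:cbf123, 45.1 FPKM in sw:cbf2 and 25.4 FPKM in sw:cbf23, against 90.3 FPKM in SW. In each of these genes SW was the highest line.

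Extensins, structural wall proteins that become cross-linked, showed the same order. EXT4 was at 11.1 FPKM in sw:cbf123, 32.2 FPKM in sw:cbf2 and 31.1 FPKM in sw:cbf23, against 68.5 FPKM in SW, 5.95-fold lower in the triple mutant with 0.5 FPKM added. EXT3 was at 10.7 FPKM in sw:cbf123, 28.7 FPKM in sw:cbf2 and 20.9 FPKM in sw:cbf23, against 53.2 FPKM in SW. Of 19 extensins and extensin-like genes kept, 5 were lower and 1 higher, and of 104 proline-rich proteins 17 were lower and 1 higher. The lower gene AT2G43150 is counted in both sets. The lower genes AT3G16670 and AT5G15780 and the higher gene AT5G54855 are annotated as pollen allergen and extensin family proteins. PRP4 was at 371 FPKM in sw:cbf123, 508 FPKM in sw:cbf2 and 364 FPKM in sw:cbf23, against 1308 FPKM in SW. Of 33 receptor-like proteins 10 were lower and 0 higher, of 17 VQ motif proteins, cofactors of WRKY factors, 8 were lower and 0 higher, and of 42 aspartyl proteases 7 were lower and 1 higher. These families too were chosen by product name after the values had been seen, and the name does not place every member in the wall. The proline-rich set, for example, also holds ELF3, TIC40 and CHUP1.

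The families share a feature that the rule did not use, the base composition of their transcripts. The codons of proline are rich in C and those of glycine rich in G. A coding stretch of EXT4 (TAIR10.1, chr1:28895867-28895926, minus strand), in an exon, is shown beside one of the glycine-rich gene GRP23 (chr2:13864004-13864063, minus strand), with C in capitals in EXT4 and G in capitals in GRP23.
EXT4: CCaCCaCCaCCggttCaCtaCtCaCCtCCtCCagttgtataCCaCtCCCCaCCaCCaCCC
GRP23: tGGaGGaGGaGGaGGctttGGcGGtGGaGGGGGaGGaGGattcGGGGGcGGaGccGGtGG
The EXT4 stretch held 32 C and 4 G, and the GRP23 stretch 37 G and 6 C. Each transcript was given a balance, the number of G less the number of C over their sum. The median balance was 0.088 for the higher genes and −0.096 for the lower genes, against 0.056 for all genes kept.

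Across the 13782 genes at 5 FPKM or more, the log2 ratio of sw:cbf123 over SW followed this balance, with a Spearman rho of 0.40 given as a description. The genes were ordered by balance and split into 10 bins of about equal size. In the bin with the most C (median balance −0.10) the median log2 ratio was −0.44, and 200 genes were lower and 17 higher. In the bin with the most G (median balance 0.19) the median was 0.23, and 66 genes were higher and 9 lower. The same measure gave 0.26 for sw:cbf2 over SW, 0.35 for sw:cbf23 over SW, and, with SW left out, 0.30 for sw:cbf123 over sw:cbf2 and 0.11 for sw:cbf123 over sw:cbf23. It gave 0.37 and 0.42 for sw:cbf123 over SW after 24 h and 2 weeks of cold, which are other libraries, and −0.16 for it8 over IT in the warm. The ratio of sw:cbf123 over SW also ran with transcript length, with a Spearman rho of −0.16 in the same genes. For sw:cbf2 over SW it was −0.28, and for sw:cbf23 over SW −0.17. The median transcript was 768 nt for the higher genes, 1325.5 nt for the lower genes and 1726 nt for all genes kept. The trend with length was not taken out of any ratio. Whether the trends with balance and length arose in the plants or in the libraries was not tested.

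**Figure D3:**
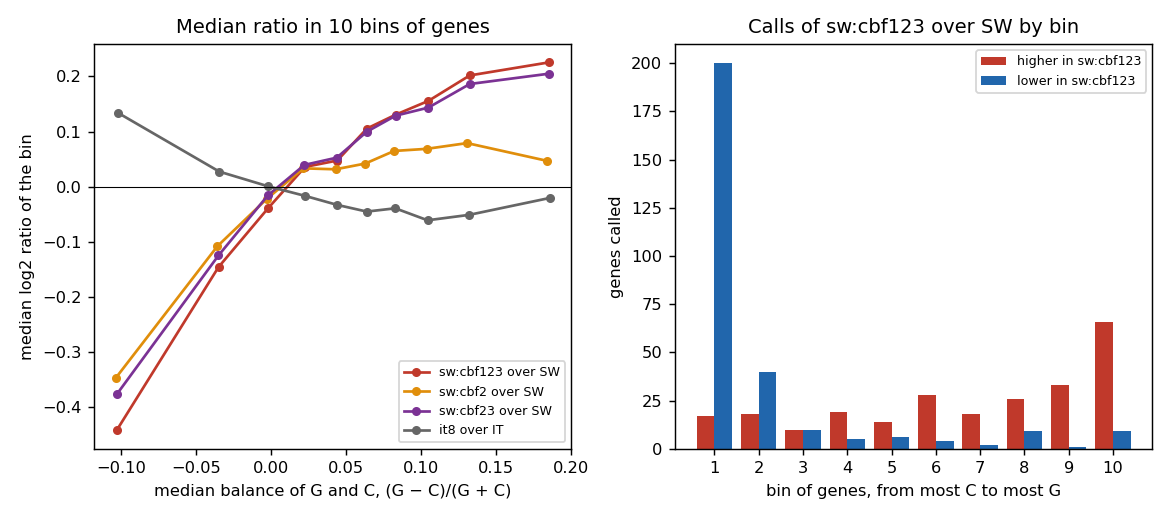
Left, median log2 ratio against the median balance of G and C in 10 bins of the genes at 5 FPKM or more, for sw:cbf123, sw:cbf2 and sw:cbf23 over SW and for it8 over IT, all in the warm. Right, genes called higher (red) and lower (blue) in sw:cbf123 in each bin. In sw:cbf123 the median runs between −0.44 and 0.23, and 200 of the lower genes stand in the bin with the most C.

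When the trend with balance was taken out with a lowess curve, which these same genes help to set, 361 genes were called higher (1.99%) and 188 lower (1.03%). So 65.8% of calls were on the higher side instead of 48.2%. Of the 394 lower genes with a known transcript, 161 were still called, and of 360 higher genes 260 were. The groups kept different numbers of their calls. Of 17 lower arabinogalactan and fasciclin-like genes FLA9 alone was still called lower, at −1.43 (group median −0.24, median balance −0.16). Of the 5 lower extensins and extensin-like genes EXT4 came to −1.17 instead of −2.57 and AT3G16670 to −1.26 instead of −2.13, both still called. EXT3 came to −0.42 instead of −2.26. PRP4 came to −1.14 instead of −1.82 and was the 1 proline-rich protein of 17 still called. Of the lower genes of the other families, 0 of the receptor-like proteins and 2 of the VQ motif proteins and 4 of the 7 aspartyl proteases were still lower. Of the 11 lower salicylic acid genes 8 were still lower (list median −0.85, median balance 0.04). So were 5 chitinases and pathogenesis-related proteins, with PR1 and PR5 counted in both sets. All 6 cysteine-rich receptor-like kinases (median balance 0.02) and 2 of the 5 WRKY factors were also still lower.

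Among the genes that were high in the triple mutant, glycine-rich proteins, many of them wall or RNA-binding proteins, gave 10 higher and 0 lower of 40 kept, with a median log2 ratio of 0.60 and a median balance of 0.22. GRP23 was at 245 FPKM in sw:cbf123, 162 FPKM in sw:cbf2 and 252 FPKM in sw:cbf23, against 52.4 FPKM in SW. AT4G30460 was at 10.2 FPKM in sw:cbf123, 5.99 FPKM in sw:cbf2 and 8.92 FPKM in sw:cbf23, against 1.704 FPKM in SW. With the trend taken out, 8 were still higher. The acidic ribosomal proteins, which form the stalk of the large ribosomal subunit, gave 5 higher and 0 lower of 9. The same 5 were higher with the trend with balance taken out, which left the trend with transcript length in. AT2G27710 of this family was at 230 FPKM in sw:cbf123, 197 FPKM in sw:cbf2 and 309 FPKM in sw:cbf23, against 76.3 FPKM in SW. The ribosomal protein L41 gene AT2G40205, with a transcript of 349 nt, was at 671 FPKM in sw:cbf123, 736 FPKM in sw:cbf2 and 621 FPKM in sw:cbf23, against 138 FPKM in SW. For all of these genes SW was the lowest line.

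**Figure D4:**
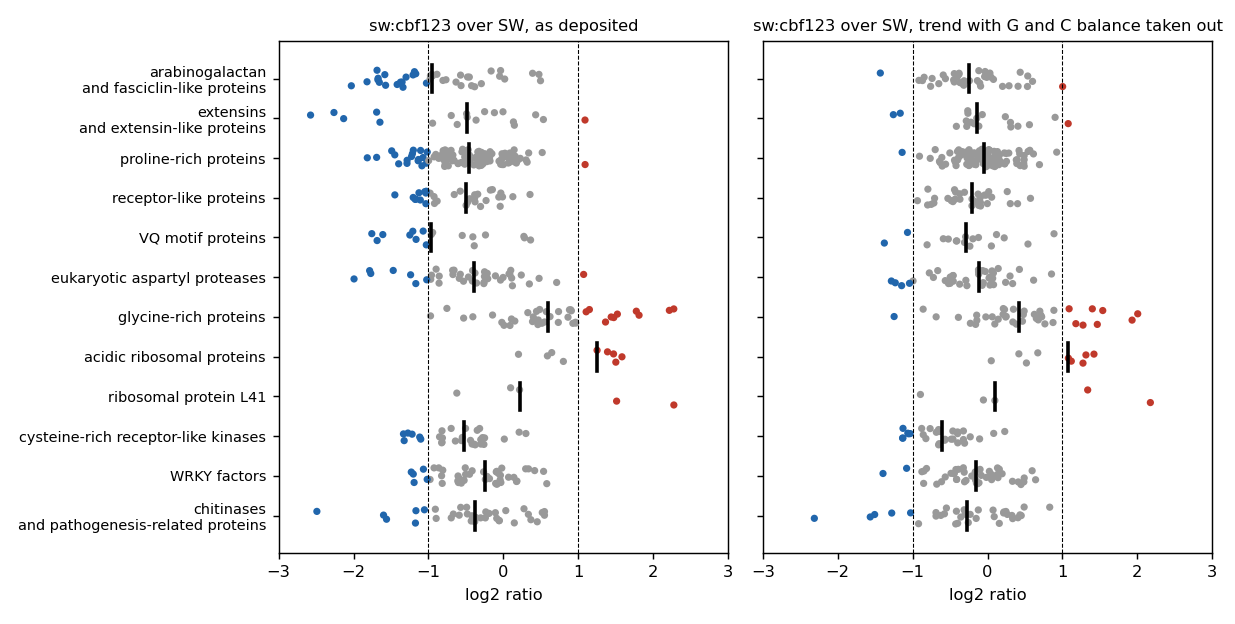
Log2 ratio of sw:cbf123 over SW in the warm for the members kept of 12 product families, 1 point per gene, with the median as a black bar, called genes in red or blue and the thresholds dashed. Left, as deposited; right, with the trend with the balance of G and C taken out, where the median of the arabinogalactan and fasciclin-like proteins moved to −0.24 and that of the cysteine-rich receptor-like kinases stood at −0.61.

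A few protein-coding genes set the triple mutant apart from SW, sw:cbf2 and sw:cbf23 in the warm. NUDT24 (chromosome 5, 6566271-6568806, plus strand), a nudix hydrolase, was at 20.6 FPKM in sw:cbf123, 2.07 FPKM in sw:cbf2 and 2.197 FPKM in sw:cbf23, against 0.98 FPKM in SW, 14.2-fold higher with 0.5 FPKM added. In the cold it was not high in the triple mutant, at 0.92 FPKM in sw:cbf123 and 0.60 FPKM in SW after 24 h, and 0.84 FPKM in sw:cbf123 and 0.43 FPKM in SW after 2 weeks. AHP4, a histidine phosphotransfer protein of cytokinin signalling, was at 5.24 FPKM in sw:cbf123, 0.53 FPKM in sw:cbf2 and 1.32 FPKM in sw:cbf23, against 0.31 FPKM in SW. HIS1-3, a histone H1 variant known to be induced by drought, was at 4.01 FPKM in sw:cbf123, 1.21 FPKM in sw:cbf2 and 1.53 FPKM in sw:cbf23, against 1.03 FPKM in SW. RTFL13, which encodes a small peptide of the ROTUNDIFOLIA family, was at 13.4 FPKM in sw:cbf123 and 3.96 FPKM in sw:cbf23, and listed at 0 in sw:cbf2, against 2.88 FPKM in SW. On the lower side AT3G55646 was at 0.71 FPKM in sw:cbf123, 3.47 FPKM in sw:cbf2 and 5.20 FPKM in sw:cbf23, against 8.70 FPKM in SW, and the glutaredoxin AT3G21460 was at 3.82 FPKM in sw:cbf123, 11.6 FPKM in sw:cbf2 and 11.5 FPKM in sw:cbf23, against 13.5 FPKM in SW. After 24 h of cold the log2 ratio of sw:cbf123 over SW was 0.73 for AHP4, 0.85 for HIS1-3 and 0.29 for AT3G21460. After 2 weeks it was 0.13, 0.36 and −0.18. RTFL13 and AT3G55646 were called the same way as in the warm after 2 weeks, at 1.49 and −1.0002, and not after 24 h. NUDT24, AHP4, HIS1-3, RTFL13 and AT3G21460 were chosen after their values were seen, in the subset of coding genes. There 11 genes were higher and 15 lower than in all 3 other lines of the SW background.

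Other large rises were shared with at least 1 of the other mutants. AT1G11700, a gene of the senescence regulator family, was at 40.1 FPKM in sw:cbf123, 13.99 FPKM in sw:cbf2 and 22.9 FPKM in sw:cbf23, against 7.44 FPKM in SW. CPL3, an R3 MYB of epidermal patterning, was at 19.1 FPKM in sw:cbf123, 8.68 FPKM in sw:cbf2 and 9.90 FPKM in sw:cbf23, against 4.33 FPKM in SW. AT3G22235, a short cysteine-rich transmembrane protein, was at 177 FPKM in sw:cbf123, 246 FPKM in sw:cbf2 and 197 FPKM in sw:cbf23, against 42.6 FPKM in SW. MT1B, annotated as a metallothionein, was at 14.3 FPKM in sw:cbf123, 13.7 FPKM in sw:cbf2 and 6.59 FPKM in sw:cbf23, against 2.29 FPKM in SW. These come from the 20 largest rises of the coding subset, a ranking added after the values were seen.

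An adjacent pair of genes on chromosome 2 went opposite ways. MAPR2, a membrane-associated progesterone-binding protein (10609417-10609900, plus strand), was at 0.022 FPKM in sw:cbf123, 19.4 FPKM in sw:cbf2 and 0.020 FPKM in sw:cbf23, against 20.9 FPKM in SW. The uncharacterized gene AT2G24945 begins 933 bp after its end on the same strand, and was at 28.8 FPKM in sw:cbf123, 11.1 FPKM in sw:cbf2 and 26.9 FPKM in sw:cbf23, against 0.74 FPKM in SW. In the cold MAPR2 was at 1.49 FPKM in sw:cbf123 and 12.2 FPKM in SW after 24 h, and at 0.088 FPKM in sw:cbf123 and 15.7 FPKM in SW after 2 weeks. AT2G24945 was not scarce in SW in the cold. It was at 24.0 FPKM in sw:cbf123 and 7.91 FPKM in SW after 24 h, and at 34.7 FPKM in sw:cbf123 and 9.55 FPKM in SW after 2 weeks. In the Italian background the pair stood the other way round, with MAPR2 at 41.7 FPKM in it8 and 0.066 FPKM in IT. AT2G24945 was at 0.034 FPKM in it8 and 40.4 FPKM in IT. How the reads of this stretch were shared out between the 2 genes was not tested.

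The CBF regulon as a whole was not lower in the warm triple mutant. Of 136 genes defined in the Ws-2 ecotype by induction both in the cold and by CBF overexpression, 130 were kept, 3 were higher and 5 lower, with a median log2 ratio of 0.26 beside 0.06 over all genes kept. The medians of the same list were 0.05 in sw:cbf2 and −0.03 in sw:cbf23, and −0.74 and −0.76 for sw:cbf123 over SW after 24 h and 2 weeks of cold. The genes higher were COR15A, COR413IM1 and HVA22E. COR15A, which encodes a chloroplast stroma protein that protects membranes, was at 190 FPKM in sw:cbf123, 112 FPKM in sw:cbf2 and 91.2 FPKM in sw:cbf23, against 83.6 FPKM in SW. COR413IM1, a chloroplast inner envelope protein, was at 84.6 FPKM in sw:cbf123, 30.2 FPKM in sw:cbf2 and 38.6 FPKM in sw:cbf23, against 35.8 FPKM in SW. HVA22E was at 6.86 FPKM in sw:cbf123, 3.24 FPKM in sw:cbf2 and 5.14 FPKM in sw:cbf23, against 3.16 FPKM in SW. With the trend in base composition taken out 3 genes of the list were higher and 0 lower: HVA22E came to 0.95 instead of 1.01 and lost its call, HVA22D came to 1.01 instead of 0.51, and all 5 lower calls were lost. In the cold the triple mutant was the lowest line for these genes.

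**Figure D5:**
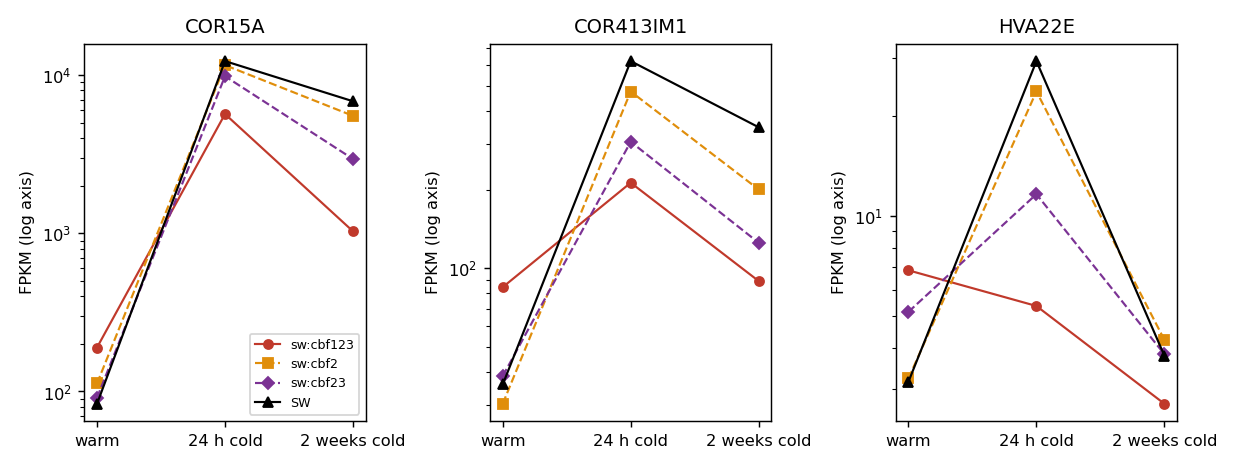
FPKM on a log axis of COR15A, COR413IM1 and HVA22E in the warm and after 24 h and 2 weeks of cold, in sw:cbf123 (red), sw:cbf2 (orange), sw:cbf23 (violet) and SW (black). The red line is the highest in the warm, with 190 FPKM for COR15A against 83.6 FPKM in SW, and the lowest after 24 h of cold for all 3 genes.

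Other COR genes lay inside the threshold in the warm, on either side of SW. GolS3, a galactinol synthase, was at 2.11 FPKM in sw:cbf123 and 2.06 FPKM in SW, the dehydrin gene ERD10 at 82.2 FPKM in sw:cbf123 and 73.6 FPKM in SW, and KIN1 at 2.17 FPKM in sw:cbf123 and 1.47 FPKM in SW. LTI30, another dehydrin, was at 3.69 FPKM in sw:cbf123 and 6.07 FPKM in SW, and COR413-PM1 at 318 FPKM in sw:cbf123 and 403 FPKM in SW. The lower genes of the Ws-2 list included the lipid transfer-like genes EARLI1 and AZI1. EARLI1 was at 6.63 FPKM in sw:cbf123, 40.3 FPKM in sw:cbf2 and 7.28 FPKM in sw:cbf23, against 16.8 FPKM in SW, and AZI1, known for priming of salicylic acid defence, at 11.9 FPKM in sw:cbf123, 45.1 FPKM in sw:cbf2 and 11.7 FPKM in sw:cbf23, against 28.7 FPKM in SW. With the trend in base composition taken out EARLI1 came to −0.40 and AZI1 to −0.28. A second list, the regulon genes that the study called in SW, IT and Col-0 alike, gave 3 higher and 3 lower of 41 (median 0.14). With the trend taken out it gave 3 higher, with HVA22D in place of HVA22E, and 1 lower, AT4G33070 at −1.004, which was none of the 3 lower before.

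Regulon genes that the study called in SW alone gave other counts. Of 231 kept, 42 were lower in sw:cbf123 in the warm and 1 was higher, with a median log2 ratio of −0.52, and 21 were lower once the trend was taken out. The list was drawn from these libraries, with the SW warm plants as its baseline, so it is not independent evidence of a direction. Its members include EXT3, EXT4 and CHI, given above. AT2G45220, annotated as a pectin methylesterase, was at 0.44 FPKM in sw:cbf123, 4.37 FPKM in sw:cbf2 and 0.85 FPKM in sw:cbf23, against 3.39 FPKM in SW. The median of this list was −0.14 in sw:cbf2 and −0.50 in sw:cbf23.

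Of the factors that act on the CBF genes, ICE1, a bHLH activator of CBF3, was at 21.2 FPKM in sw:cbf123, 15.7 FPKM in sw:cbf2 and 24.4 FPKM in sw:cbf23, against 9.81 FPKM in SW. It was the 1 gene called of 13 regulators kept, and its log2 ratio of 1.07 came to 0.88 with the trend taken out. SCRM2 (ICE2) stood at −0.41, PIF4 at −0.40, PIF7 at −0.07 and HOS1 at −0.11. Of 25 touch and fast stress factors, many of which peak soon after a plant is handled, RAV1 alone was called, at 18.5 FPKM in sw:cbf123, 24.4 FPKM in sw:cbf2 and 19.1 FPKM in sw:cbf23, against 37.7 FPKM in SW.

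Abscisic acid genes leaned upward in the triple mutant. RAB18, a dehydrin induced by this hormone, was at 13.0 FPKM in sw:cbf123, 8.56 FPKM in sw:cbf2 and 8.72 FPKM in sw:cbf23, against 5.33 FPKM in SW. ABF3, a bZIP factor that activates such genes, was at 23.7 FPKM in sw:cbf123, 14.5 FPKM in sw:cbf2 and 18.5 FPKM in sw:cbf23, against 10.7 FPKM in SW. These 2 of 17 genes kept were called higher and 0 lower, the median log2 ratio was 0.46, and HB-7 at 0.96, PP2CA at 0.95 and ABI1 at 0.93 lay just below the threshold. With the trend with balance taken out RAB18 came to 0.98 and ABF3 to 0.88, so 0 genes were called, and the list median was 0.38 (median balance 0.14). For sw:cbf123 over SW in the cold the median of the same genes was −0.11 after 24 h and 0.15 after 2 weeks.

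Of 16 genes of sugar starvation and starch breakdown kept, 2 were higher, 0 lower and 7 below SW, with a median log2 ratio of 0.34. ISA3, a debranching enzyme of starch breakdown, was at 14.3 FPKM in sw:cbf123, 8.11 FPKM in sw:cbf2 and 6.77 FPKM in sw:cbf23, against 5.47 FPKM in SW. GBSS1, the granule-bound starch synthase, was at 140 FPKM in sw:cbf123, 90.2 FPKM in sw:cbf2 and 90.7 FPKM in sw:cbf23, against 65.8 FPKM in SW. With the trend taken out ISA3 came to 1.21 and GBSS1 to 0.96, inside the threshold. PAP1, a MYB activator of anthocyanin synthesis, was at 12.4 FPKM in sw:cbf123, 6.74 FPKM in sw:cbf2 and 6.52 FPKM in sw:cbf23, against 5.44 FPKM in SW. Of 14 flavonoid and anthocyanin genes kept, PAP1 alone was called, 13 lay above SW, and the median was 0.62, with F3H at 0.88 and the chalcone synthase TT4 at 0.68.

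The light-harvesting genes, which mark green leaf tissue, leaned the same way without a call. Their 22 members with the RBCS genes summed to 112411 FPKM in sw:cbf123, 100043 FPKM in sw:cbf2 and 112298 FPKM in sw:cbf23, against 92217 FPKM in SW, and 20 of the 22 lay above SW (median 0.41). CAB3 was at 7925 FPKM in sw:cbf123 and 4359 FPKM in SW, and RBCS1A at 19668 FPKM in sw:cbf123 and 23948 FPKM in SW. Of the growth genes, IAA29, an auxin response gene, was lower at 0.77 FPKM in sw:cbf123, 1.02 FPKM in sw:cbf2 and 1.66 FPKM in sw:cbf23, against 2.72 FPKM in SW, and EXPA8 stood at −0.97. No gene passed the threshold in the lists of the morning clock (12 kept), evening clock and CDF factors (8), flowering time (9), iron (10), nitrate (12), phosphate (11) and sulfur supply (10), glucosinolates (21), heat shock (9) and the cell cycle (13).

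Markers of other organs were scarce. The 10 flower markers summed to 0.50 FPKM in sw:cbf123 and 1.13 FPKM in SW, and the 6 seed markers to 0.029 FPKM in sw:cbf123 and 0.18 FPKM in SW, with none at 1 FPKM. The 9 root markers summed to 23.9 FPKM in sw:cbf123, 25.7 FPKM in sw:cbf2 and 49.8 FPKM in sw:cbf23, against 36.6 FPKM in SW, of which 1 gene gave 35.4 FPKM in SW. The part of these differences, or of the light-harvesting genes, in the calls was not tested.

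Many of the warm calls were found again in the cold, in libraries that the warm comparison did not use. Of the 381 higher genes, 173 (45.4%) were also higher in sw:cbf123 than in SW after 24 h of cold and 151 (39.6%) after 2 weeks, and 208 at 1 time or the other. After 24 h of cold 967 genes were higher in sw:cbf123 (5.27%) and 1022 lower (5.57%), and after 2 weeks 623 were higher (3.44%) and 476 lower (2.63%). Of the genes kept in the warm, 5.03% were higher after 24 h and 3.09% after 2 weeks. Of the 410 lower genes, 183 (44.6%) were lower after 24 h and 143 (34.9%) after 2 weeks, and 218 at 1 time or the other, beside 4.23% and 2.19% of the genes kept in the warm. Of the higher genes, GRP23 was found again, at 97.9 FPKM in sw:cbf123 and 17.55 FPKM in SW after 24 h. Of the lower genes, EXT4 was, at 38.5 FPKM in sw:cbf123 and 231 FPKM in SW. A further 40 of the higher genes and 20 of the lower genes were called the opposite way at 1 or both times. With the trend in base composition taken out of each comparison, 361 genes were higher and 188 lower in the warm. Of these, 243 were called the same way in the cold, against 426 of the 381 higher and 410 lower genes with it left in.

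The called genes were spread over the genome, with 1.8% to 2.33% of genes higher and 1.47% to 2.6% lower on chromosomes 1 to 5. Their promoters (1000 bp upstream of the translation start, TAIR10.1, both strands) were searched for the CRT/DRE element (ACCGAC or GCCGAC), the ABRE core ACGTG, the CAMTA motif CGCGT and the evening element AAAATATCT. The CRT/DRE element was in 27.1% of the promoters of higher genes and 21.8% of those of lower genes, against 25.0% for all genes kept and 69.1% in the Ws-2 list. The ABRE core was in 64.9% of the promoters of higher genes and 54.0% of those of lower genes, against 54.0% for all genes kept. The CAMTA motif was in 24.7% of the promoters of higher genes and 21.2% of those of lower genes, against 24.7% for all genes kept, and the evening element in 8.36% and 7.44%, against 7.28%. Over all 27443 promoters the shares were 23.1% for the CRT/DRE element, 54.2% for the ABRE core, 22.7% for the CAMTA motif and 7.26% for the evening element. A match describes the letters of a promoter and shows no binding.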

How the data were processed

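RNA from the aerial part of 2 samples per group was sequenced. Per the labels and the study's methods, the authors aligned reads to TAIR10 with TopHat2 2.1.0 and estimated FPKM with Cufflinks 2.1.1 (the version in the submitters' processing notes, where the methods give a later one) and Cuffdiff. The deposited FPKM are 1 pooled value per gene and group, scaled for transcript length and library size. Counts and fragments per library were not analysed here, so the depth behind a value is unknown and no interval is given. Genes at 1 FPKM or more numbered 17962 in sw:cbf123, 18012 in sw:cbf2, 18094 in sw:cbf23 and 17879 in SW, and 10525 to 10994 were listed at 0. A listed 0 can be a failed estimate. Strand and the treatment of reads that match several genes are not given in the sources used here.

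Samples were grouped by their titles. Each log2 ratio had 0.5 FPKM added to both columns, a gene was kept if either column reached 1 FPKM, and it was called at a log2 ratio of 1 or −1. The design foresaw limma for replicate columns, which the table does not hold, so calls rest on the size of the ratio. Transcripts, positions and promoters came from RefSeq TAIR10.1, where 32813 genes matched. The balance of G and C was taken from the longest transcript, and its trend was fitted with lowess (fraction 0.3, genes at 5 FPKM or more). Python 3.11.15, pandas 2.3.3, NumPy 2.4.6 and statsmodels 0.14.6 were used, and the steps were tested on simulated data.

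The genes named were the CBF genes, the 12 largest rises and falls at 5 FPKM or more, the 8 largest in each direction against all 3 other lines, and up to 4 called members per list in each direction. Others were named after their values were seen: the 20 largest rises and falls of the coding subset, genes of product families, genes beside the array or at the threshold, and uncalled members of lists. The genes compared and the lists were chosen with earlier results of these data known. Alternatives were other pseudocounts and filters, quantile normalization, median-of-ratios scaling, the trend taken out, the coding subset, and the mean of sw:cbf2 and sw:cbf23 as the reference.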

Additional observations from a re-analysis of the deposited data

Results flagged for a closer look

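A few named genes were called 1 way in the warm and the opposite way in the cold for the same contrast, sw:cbf123 over SW, in other plants. With 1 pooled value per group the difference between treatments was not tested. COR15A was at 190 FPKM in sw:cbf123 and 83.6 FPKM in SW in the warm (log2 ratio 1.18), at 5671 FPKM in sw:cbf123 and 12251 FPKM in SW after 24 h of cold (−1.11), and at 1029 FPKM in sw:cbf123 and 6830 FPKM in SW after 2 weeks (−2.73). COR413IM1 was at 84.6 FPKM in sw:cbf123 and 35.8 FPKM in SW in the warm (1.23), at 213 FPKM in sw:cbf123 and 622 FPKM in SW after 24 h (−1.55), and at 89.3 FPKM in sw:cbf123 and 347 FPKM in SW after 2 weeks (−1.95). For these genes the level in SW climbed far more with cold than that in the mutant.

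HVA22E was at 6.86 FPKM in sw:cbf123 and 3.16 FPKM in SW in the warm (1.01), and at 5.36 FPKM in sw:cbf123 and 29.4 FPKM in SW after 24 h (−2.35). AT3G14060, an uncharacterized gene, was at 3.07 FPKM in sw:cbf123 and 0.94 FPKM in SW in the warm (1.31), and at 4.43 FPKM in sw:cbf123 and 12.3 FPKM in SW after 24 h (−1.38). The short gene AT2G41082 was at 4.28 FPKM in sw:cbf123 and 37.6 FPKM in SW in the warm (−2.99), at 15.4 FPKM in sw:cbf123 and 0.63 FPKM in SW after 24 h (3.82), and at 22.9 FPKM in sw:cbf123 and 3.91 FPKM in SW after 2 weeks (2.405).

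The defensins turned round at 2 weeks. PDF1.2b was at 8.16 FPKM in sw:cbf123 and 24.7 FPKM in SW in the warm (−1.54), and at 489 FPKM in sw:cbf123 and 201 FPKM in SW after 2 weeks (1.28). PDF1.3 was at 1.81 FPKM in sw:cbf123 and 4.93 FPKM in SW in the warm (−1.23), and at 683 FPKM in sw:cbf123 and 122 FPKM in SW after 2 weeks (2.49).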

How the results depend on the processing

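No paired analysis was possible because each group has 1 pooled column, and for the same reason no replicate could be left out. With the trend in base composition taken out, 188 genes were lower in sw:cbf123 instead of 410, and 19 were lower in all 3 mutants instead of 63. Of the 361 higher and 188 lower genes then called in the warm, 243 were called the same way in the cold. With the trend left in, 426 of 381 higher and 410 lower genes were. The median of the salicylic acid list came to −0.85 instead of −1.02. In the coding subset, chosen after seeing the data, 252 genes were higher instead of 381, and 52 were higher in all 3 mutants instead of 96. Against all other lines of the SW background, 11 were higher instead of 57 and 15 lower instead of 27. At 5 FPKM or more, 34 were higher and 13 lower than in all other lines, and 7 genes of the salicylic acid list were lower instead of 11, with a list median of −0.54. Adding 0.1 FPKM gave 42 genes lower than in all other lines, and adding 1 FPKM gave a list median of −0.80. Against the mean of sw:cbf2 and sw:cbf23 as the reference, 103 genes were higher and 176 lower. Quantile normalization gave 334 higher and 474 lower, and median-of-ratios scaling 347 and 476. Of the 97 called genes taken by rank or as top list members, 48 kept their call, 45 fell inside the threshold and 4 changed sign against that mean. It was an alternative added after seeing the data. AT1G74929 came to −0.30, AT2G40205 to −0.016, AT3G22235 to −0.33 and U60.1F to −0.39. Under the other settings none of the 97 changed sign. Of the 91 with a known transcript, 15 fell inside the threshold with the trend taken out. Called genes named in other ways, among them PR1, SOS5 and AT2G27710, were not in this check. The level of AT2G27710 in sw:cbf123 lay above that in sw:cbf2 and below that in sw:cbf23. The depth is unknown, and low values and short transcripts have the least support.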
